A study of Mus musculus with 16 samples.

Results

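Respiratory complex I is the NADH dehydrogenase of the mitochondrial inner membrane, and its nuclear genes were followed here through 12 RNA-seq libraries of mouse quadriceps, the large muscle of the front thigh. The genes were chosen by name: every row whose gene symbol begins with Nduf and which stood in both deposited tables of gene values was taken, whatever its values. That gave 45 of the 24327 named genes that the 2 tables share, 38 of them subunits or relatives of subunits and 7 assembly factors (Ndufaf1 to Ndufaf7). All 45 were among the genes tested in both tables.

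The study set quadriceps of HDAC3-KO mice against wild-type (WT) quadriceps, after treadmill running and at rest, with 3 libraries in each of 4 groups. HDAC3 is a histone deacetylase that works within nuclear receptor corepressor complexes. The 4 groups were HDAC3-KO after running, WT after running, HDAC3-KO at rest and WT at rest, and all were male C57BL/6 mice of 4 months on normal chow. Runners did 3 bouts of 1 h each at 10 m/min, with 1 h between bouts, and their muscle was taken 2 h after the last bout. The labels do not name the Cre driver or allele of the knockout, nor whether each library came from a separate animal, so p-values measure the spread between these libraries, which may be technical.

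Complex I takes electrons from NADH and passes them through a flavin and a chain of iron-sulfur clusters to ubiquinone, while it pumps protons across the membrane. It is built from an N module that oxidises NADH, a Q module that reduces ubiquinone, and a membrane arm with a proximal and a distal pumping part. Assembly factors help put these modules together and are absent from the finished enzyme. Several core membrane subunits are encoded in mitochondrial DNA; those were not analysed here, and the values below concern the nuclear genes. Skeletal muscle is rich in the complex, most of all in its oxidative fibres.

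Levels are given as FPKM, a level scaled to transcript length and library size. Differences are HDAC3-KO minus WT on the log2(FPKM + 1) scale within 1 table, tested with limma over all tested genes of that table and called at a Benjamini-Hochberg adjusted p of 0.05. As a check of the labels, Hdac3 had 5.32, 6.37 and 4.13 FPKM in HDAC3-KO muscle after running, against 31.0, 32.0 and 27.6 FPKM in WT muscle after running. At rest it had 5.51, 6.29 and 8.16 FPKM in HDAC3-KO muscle, against 33.3, 31.0 and 23.7 FPKM in WT muscle. Hdac3 fell in both tables (log2 difference -2.33, SE 0.15, limma adjusted p = 0.00111 for the runners, and log2 difference -1.99, SE 0.17, limma adjusted p = 0.00487 without running).

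The libraries summed to between 454359 and 522584 FPKM, with 10123 to 10544 genes at 1 FPKM or more, and their depth in reads was unknown. The 7 genes of the skeletal muscle fibre list summed to 28021 FPKM or more in every library. The 3 Schwann cell genes summed to at most 6.03 FPKM, and Sox10 among them was listed at 0 in a single library of each group. The 4 adipocyte genes reached at most 10.5 FPKM, and Plin1 was listed at 0 in HDAC3-KO library 3 at rest. A pair of libraries stood apart in the 6 neutrophil and macrophage genes: HDAC3-KO library 3 after running summed to 373 FPKM where the other 2 of its group summed to 46.5 and 64.0 FPKM, and WT library 2 at rest summed to 519 FPKM, against 51.0 and 57.1 FPKM. S100a8 and S100a9 made up most of both sums. The 7 slow oxidative fibre genes summed to 50.2 to 146 FPKM in HDAC3-KO and 49.2 to 131 FPKM in WT muscle after running, and to 103 to 198 FPKM in HDAC3-KO and 76.5 to 143 FPKM in WT muscle at rest. The 5 fibroblast genes lay between 258 and 569 FPKM, the 4 erythroid genes between 57.6 and 279.8 FPKM and the 3 endothelial genes between 35.2 and 61.3 FPKM over the 12 libraries. The part of these cell types in the results below was not tested. Of all the genes on the marker lists, limma called Cd68 alone, after running (log2 difference 1.48, SE 0.28, limma adjusted p = 0.0372). By the q of the authors' deposited table, Cd68, Lyz2, S100a8 and S100a9 were higher and Tnnt1 lower in HDAC3-KO muscle after running, and Myl3 was higher and S100a8, S100a9, Col1a1 and Col1a2 lower at rest. These are bulk libraries, in which fewer cells of a type and less RNA per cell cannot be told apart.

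A set of 5 upstream sequences is shown first, from the genes on which the results turn: Ndufs7, Ndufb2 and Ndufaf5, which had a low q in the authors' deposited table; Ndufa5, whose values were higher in all HDAC3-KO libraries after running; and Ndufb7, whose values moved from library to library with those of Ndufs7 (r = 0.995). RefSeq windows of build GRCm38.p6, of 250 bases before and 50 bases after a gene's start, were found for 39 of the 45 genes, some with more than 1 start, which gave 41 windows. The expression values themselves were made on mm9, so these coordinates are not those of the value tables. The last 150 bases before the start and the 50 after it are printed 5′ to 3′ on the gene's strand, and capitals mark a match to any of 4 motifs: GCGCA, any base and GCGC for NRF1, AAGATGGCG for YY1, CCGGAAG for ETS factors and the CCAAT box, each searched on both strands.
Ndufs7 (chr10:80249299-80249498, plus strand): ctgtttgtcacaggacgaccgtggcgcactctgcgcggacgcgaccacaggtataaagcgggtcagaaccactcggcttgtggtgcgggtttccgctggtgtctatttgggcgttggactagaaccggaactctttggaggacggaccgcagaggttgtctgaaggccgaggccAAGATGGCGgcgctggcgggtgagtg
Ndufb7 (chr8:83566608-83566807, plus strand): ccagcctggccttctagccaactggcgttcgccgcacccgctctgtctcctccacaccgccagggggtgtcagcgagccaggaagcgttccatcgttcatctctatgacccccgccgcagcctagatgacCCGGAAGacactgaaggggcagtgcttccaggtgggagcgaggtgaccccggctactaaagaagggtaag
Ndufb2 (chr6:39592415-39592614, plus strand): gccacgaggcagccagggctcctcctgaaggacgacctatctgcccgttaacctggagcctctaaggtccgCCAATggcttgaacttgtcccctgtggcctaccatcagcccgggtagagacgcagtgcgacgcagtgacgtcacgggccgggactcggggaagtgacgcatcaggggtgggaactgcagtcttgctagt
Ndufaf5 (chr2:140170496-140170695, plus strand): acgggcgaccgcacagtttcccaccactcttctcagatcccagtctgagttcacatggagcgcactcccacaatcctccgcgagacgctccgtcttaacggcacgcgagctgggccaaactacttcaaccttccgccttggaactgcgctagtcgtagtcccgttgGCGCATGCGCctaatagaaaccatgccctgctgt
Ndufa5 (chr6:24527641-24527840, minus strand): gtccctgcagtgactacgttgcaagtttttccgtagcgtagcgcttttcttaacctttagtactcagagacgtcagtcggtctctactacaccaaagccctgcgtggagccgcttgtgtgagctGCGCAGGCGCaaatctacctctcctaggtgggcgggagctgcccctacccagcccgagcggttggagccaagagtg

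Each of the 5 windows held a match to 1 of the 4 motifs. Ndufs7 had the YY1 letters from base 25 after the start, and Ndufb7 had the ETS letters from position -20, counted back from it. In Ndufb2 a CCAAT box began at position -79. The NRF1 letters of Ndufaf5, from base 17 after the start, read the same on both strands. Ndufa5 had them from position -26 of the start shown, which is position -190 of another listed start, so both Ndufa5 windows hold the same site. No 2 of the motifs overlapped in the sequences printed, and Ndufs7 and Ndufb7 had no motif in common there.

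Over the 41 windows, the NRF1 letters stood in 10 (24.4%), which belong to 9 genes, against 10.8% of 9263 windows of tested genes and 4.6% of all 32851 windows. The YY1 letters stood in 5 (12.2%), against 3.41% of windows of tested genes and 1.40% of all windows. The ETS letters also stood in 5 (12.2%), against 18.5% and 8.86%. The CCAAT box stood in 13 (31.7%), against 37.2% and 37.4%. A match is a run of letters and not a measured binding site.

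The 45 genes spanned a wide range of levels in quadriceps. Ndufa4 was the most abundant, with a mean of 1596 FPKM over the 12 libraries, followed by Ndufa3 at 1021 FPKM and Ndufb9 at 937 FPKM. Ndufa4 was first described as a complex I subunit and is now counted with complex IV, while Ndufa3 and Ndufb9 belong to the membrane arm. Ndufa4 had 1306, 1517 and 1389.7 FPKM in HDAC3-KO and 1860.0, 1688 and 1941 FPKM in WT muscle after running, and 1381, 1460.4 and 1525 FPKM in HDAC3-KO and 1848, 1777 and 1465 FPKM in WT muscle at rest. Every one of these 12 values lay above the highest value of Ndufa3 in any library. Ndufa3 had 954, 1046 and 1195 FPKM in HDAC3-KO and 1051, 988 and 1126 FPKM in WT muscle after running, and 988, 959.8 and 1062 FPKM in HDAC3-KO and 946, 987 and 951 FPKM in WT muscle at rest. Ndufb9 overlapped with it, so the order of these 2 is within their spread.

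At the other end stood Ndufa4l2, a relative of Ndufa4 known as a hypoxia-induced gene, at a mean of 2.55 FPKM, and the assembly factors Ndufaf7 and Ndufaf3 at 7.95 and 8.75 FPKM. Ndufaf7, whose human protein is a methyltransferase, had 6.67, 9.11 and 8.10 FPKM in HDAC3-KO and 7.68, 7.59 and 6.66 FPKM in WT muscle after running, and 8.17, 8.68 and 9.25 FPKM in HDAC3-KO and 7.83, 8.69 and 6.93 FPKM in WT muscle at rest. Ndufaf3, which acts in building the Q module, had 7.44, 8.66 and 8.67 FPKM in HDAC3-KO and 7.73, 10.2 and 8.28 FPKM in WT muscle after running, and 6.49, 7.83 and 11.1 FPKM in HDAC3-KO and 5.40, 9.41 and 13.9 FPKM in WT muscle at rest. The libraries of these 2 genes overlapped. The assembly factors had a median of 13.5 FPKM, against 254 FPKM over the 38 other genes, and the highest of the 7, Ndufaf1, had 49.8 FPKM. By module, the medians of the mean levels were 250.3 FPKM for the N module (10 genes), 299.9 FPKM for the Q module (6), 192 FPKM for the proximal arm (9) and 329 FPKM for the distal arm (10). The mitochondrial acyl carrier Ndufab1, which also serves in fatty acid synthesis, had 95.1 FPKM.

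**Figure D1:**
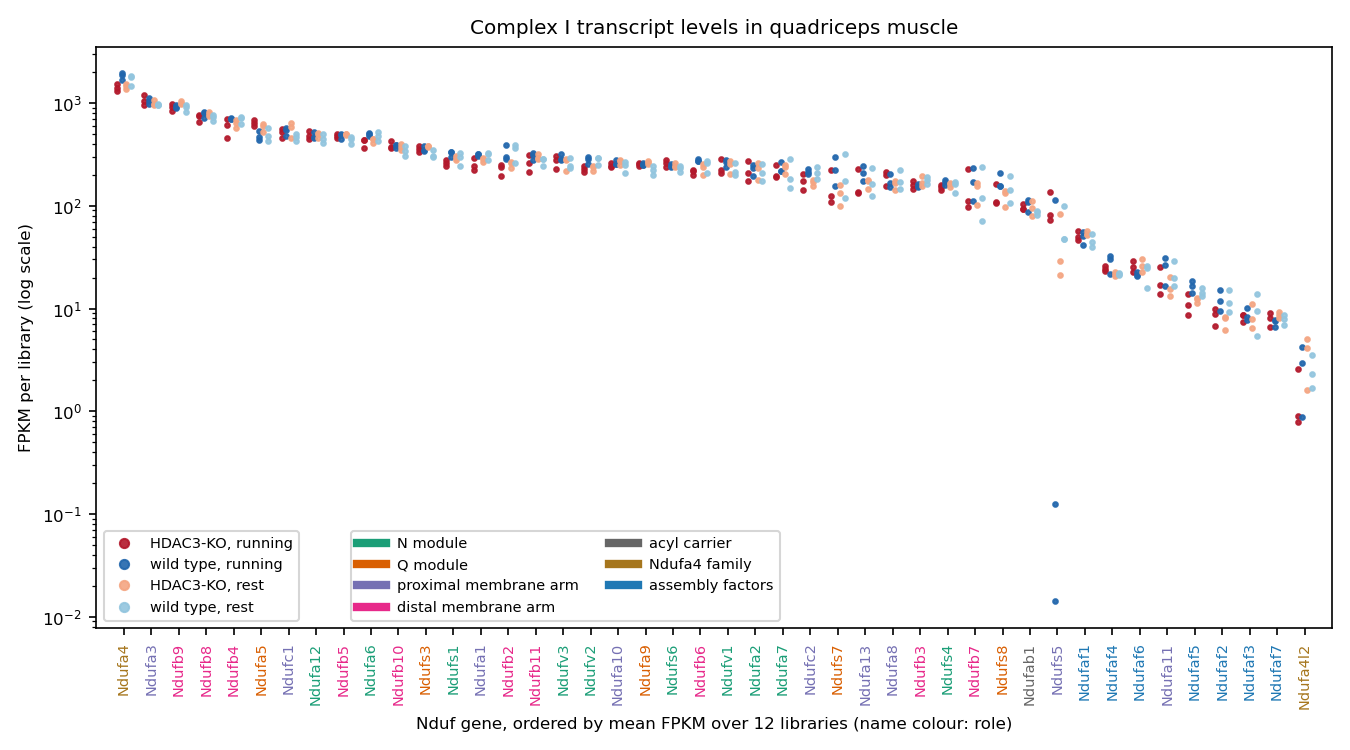
Level of 44 of the 45 Nduf genes in each of the 12 libraries, in FPKM on a log scale, ordered by mean level; points are libraries, coloured by group, and gene names are coloured by role. Ndufa4 leads at a mean of 1596 FPKM, the assembly factors sit at the low end, and Ndufs5 drops far below its other values in 2 WT libraries after running.

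After running, none of the 45 genes was called by limma between HDAC3-KO and WT muscle, where 3.73% of the 9037 tested genes were called. At an unadjusted p of 0.05, 13 of the 45 passed, against 19.9% of all tested genes. In HDAC3-KO muscle 2 were higher, Ndufa5 and Ndufs5 (9.39% of tested genes), and 11 lower (10.5%). The authors' deposited table had 3 of the 45 at a q of 0.05 or less, all lower in HDAC3-KO muscle, against 4.91% of tested genes lower and 9.57% in either direction. The log2 difference was below 0 for 32 of the 45 genes, against 50.1% of all tested genes, and its median was -0.14, against -0.00 over all tested genes. In 40 of the 45 genes the 95% interval of the difference lay within 2-fold either way, which 89% of tested genes also did. A p that missed the threshold does not show that the genotypes had equal levels.

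For 13 of the 45 genes, all HDAC3-KO libraries after running lay on the same side of all WT libraries. This set differs from the 13 that passed the unadjusted p. Ndufaf6 did not pass it (limma unadjusted p = 0.0897), while Ndufs5 passed it (limma unadjusted p = 0.0305) with overlapping libraries. Ndufa5 and Ndufaf6 were higher in every HDAC3-KO library, against 12.4% of tested genes. Another 11, among them Ndufs1, Ndufs4, Ndufv2, Ndufa6, Ndufa1, Ndufb2, Ndufb4, Ndufb6, Ndufa4 and Ndufaf5, were lower in every HDAC3-KO library, against 13.7% of tested genes.

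In the N module, which holds the NADH site, 8 of 10 genes had a difference below 0 after running, with a median of -0.14. Ndufv2, a core subunit with an iron-sulfur cluster, had 215, 242 and 226 FPKM in HDAC3-KO muscle, against 287, 257 and 298 FPKM in WT muscle (log2 difference -0.30, SE 0.11, limma adjusted p = 0.19). Ndufs1, the largest core iron-sulfur subunit, had 246, 280.0 and 262 FPKM in HDAC3-KO muscle, against 331, 296 and 335 FPKM in WT muscle (log2 difference -0.29, SE 0.11, limma adjusted p = 0.202). Both sets of 3 were separate between genotypes, yet neither passed the test. Ndufa6, an accessory subunit that binds the acyl carrier, had 363, 438 and 437 FPKM in HDAC3-KO muscle and 501, 512 and 480.1 FPKM in WT muscle (log2 difference -0.27, SE 0.12, limma adjusted p = 0.241). Ndufs4, an accessory subunit whose loss in mice causes a Leigh-like disease, had 142, 158 and 152 FPKM in HDAC3-KO muscle and 172, 160.5 and 178 FPKM in WT muscle (log2 difference -0.17, SE 0.10, limma adjusted p = 0.392). The remaining 6 (Ndufv1, Ndufv3, Ndufs6, Ndufa2, Ndufa7 and Ndufa12) overlapped between genotypes, with differences between -0.14 and 0.08.

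In the Q module, which hands electrons to ubiquinone, differences after running ran from -0.58 to 0.42, with 4 of 6 below 0 and a median of -0.18. Ndufs7, the core subunit that carries the last cluster before ubiquinone, had 126, 109 and 221 FPKM in HDAC3-KO muscle, against 221, 300.2 and 155 FPKM in WT muscle. The libraries overlapped, since HDAC3-KO library 3 lay above WT library 3, and limma gave log2 difference -0.58, SE 0.31, limma adjusted p = 0.336. The authors' deposited table gave Ndufs7 a q of 0.0114. Leaving out any 1 library moved its difference between -0.89 and -0.35. Ndufs8, its neighbour in the cluster chain, had 106, 108 and 163 FPKM in HDAC3-KO muscle and 157, 207 and 155 FPKM in WT muscle (log2 difference -0.47, SE 0.20, limma adjusted p = 0.232). Its spread followed that of Ndufs7, with HDAC3-KO library 3 above the 2 lower WT libraries.

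Ndufa5, an accessory subunit of the same module, went the other way, with 645, 686 and 591 FPKM in HDAC3-KO muscle, against 436, 468 and 532 FPKM in WT muscle (log2 difference 0.42, SE 0.12, limma adjusted p = 0.108). Its lowest HDAC3-KO library lay above its highest WT library. Ndufs3 and Ndufa9 had differences of -0.00 and 0.00, so within this 1 module the measured differences ran in both directions.

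**Figure D2:**
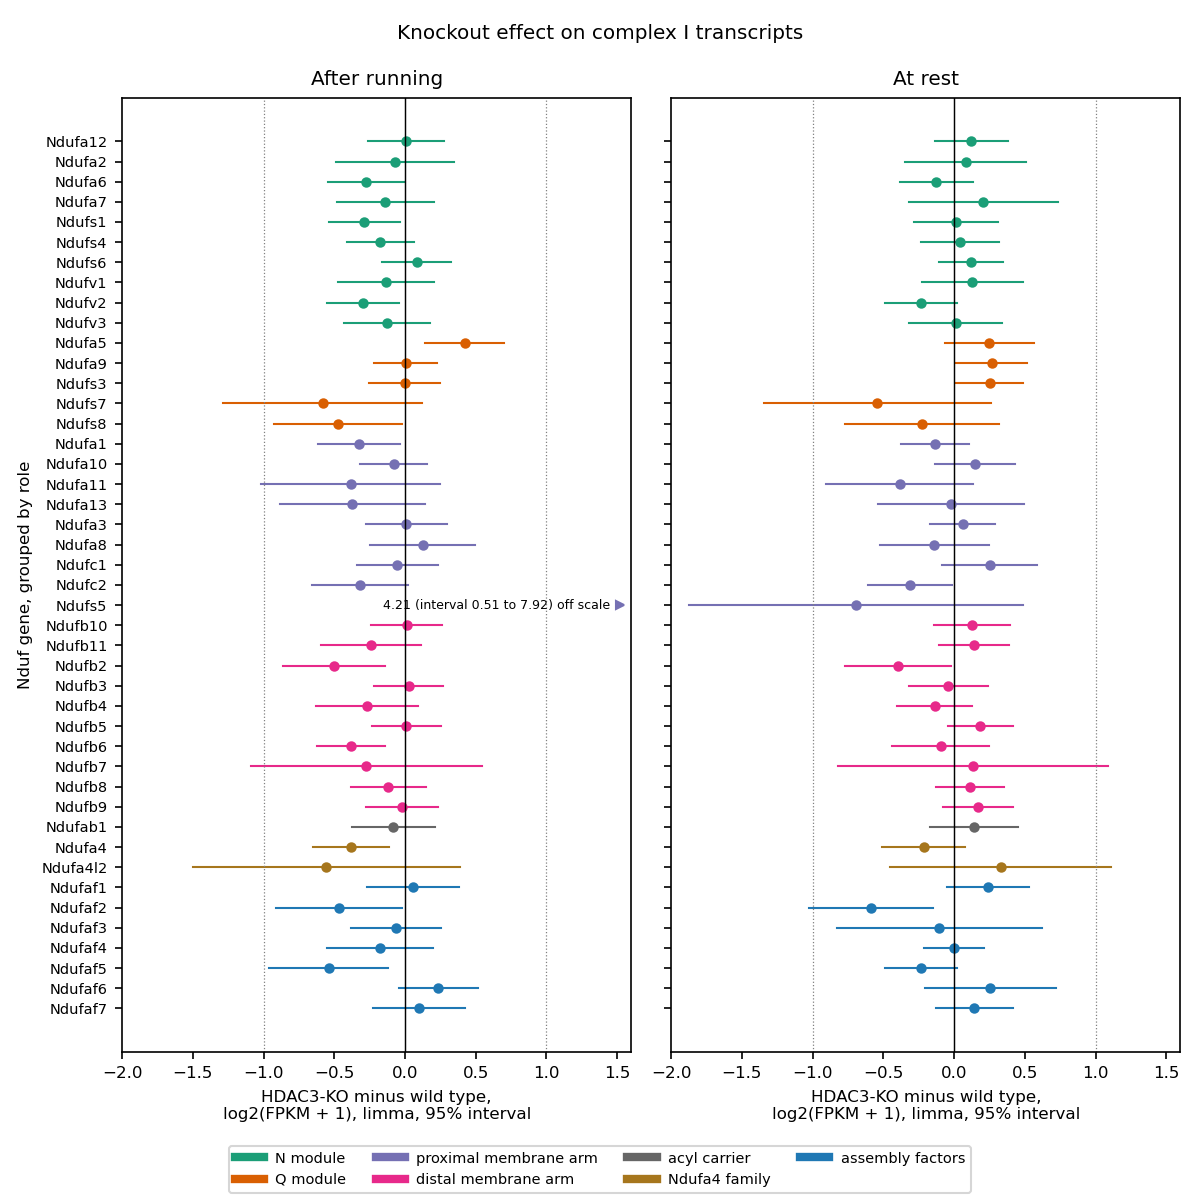
Log2(FPKM + 1) in HDAC3-KO minus WT muscle for 44 of the 45 Nduf genes, after running (left) and at rest (right); points are limma estimates, lines their 95% intervals, colours the role of the gene, and dotted lines mark 2-fold. Most points lie below 0 after running, no such lean shows at rest, and no gene passed an adjusted p of 0.05 in either.

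In the distal membrane arm, Ndufb2 and Ndufb6 had the largest differences after running. Ndufb2, an accessory subunit, had 196, 236 and 251 FPKM in HDAC3-KO muscle, against 391, 295 and 288 FPKM in WT muscle (log2 difference -0.50, SE 0.16, limma adjusted p = 0.134). The authors' deposited table gave it a q of 0.03. Ndufb6, another accessory subunit, had 199, 217 and 225 FPKM in HDAC3-KO muscle, against 288, 274 and 272 FPKM in WT muscle, and its adjusted p was the lowest of the 45 (log2 difference -0.38, SE 0.10, limma adjusted p = 0.0927). For both, every HDAC3-KO library lay below every WT library. Ndufb4 had 461, 614 and 693 FPKM in HDAC3-KO muscle and 695, 712 and 697 FPKM in WT muscle (log2 difference -0.27, SE 0.16, limma adjusted p = 0.378), with HDAC3-KO library 3 almost level with the lowest WT library. Without HDAC3-KO library 1 the Ndufb4 difference was -0.10. The reference gene table lists the near-namesakes Ndufb4b and Ndufb4c, so reads could have been split between copies and the Ndufb4 values are uncertain. Over the distal arm 7 of 10 differences were below 0, with a median of -0.18.

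In the proximal arm 6 of 9 differences were below 0, with a median of -0.08. Ndufa1, a small subunit needed for assembly of the membrane arm, had 223, 245 and 292 FPKM in HDAC3-KO muscle, against 321, 317 and 307 FPKM in WT muscle (log2 difference -0.32, SE 0.12, limma adjusted p = 0.205), with no overlap. Ndufa8, an accessory subunit exposed to the intermembrane space, had 201, 157 and 214 FPKM in HDAC3-KO muscle and 167, 204 and 153 FPKM in WT muscle (log2 difference 0.12, SE 0.16, limma adjusted p = 0.714). Its libraries were mixed between genotypes. Ndufab1 had a difference of -0.08.

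Ndufs5, an accessory subunit of the proximal arm, varied from library to library more than any other of the 45. After running it had 137, 82.1 and 72.1 FPKM in HDAC3-KO muscle and 0.124, 0.0141 and 114 FPKM in WT muscle, so that 2 WT libraries were near 0 while WT library 3 lay above 2 of the HDAC3-KO libraries. At rest it had 21.0, 28.9 and 83.2 FPKM in HDAC3-KO muscle and 47.8, 47.2 and 99 FPKM in WT muscle. Its standard deviation within groups was 2.05 on the log2 scale, where the median of the 45 was 0.16 and that of all genes with a test in each condition was 0.19. The difference after running was 4.21 with an SE of 1.61 (limma adjusted p = 0.201), and without WT library 3 it was 6.46 and passed the test (limma adjusted p = 0.000246). At rest it was -0.69 with an SE of 0.51 (limma adjusted p = 0.479). The reference gene table lists a transcribed pseudogene, Ndufs5-ps, and reads of near-identical copies may be split between rows, so the values of Ndufs5 are uncertain. The same table lists Ndufa11b, Ndufa12-ps, Ndufab1-ps and Ndufs6b, and the same caution applies to Ndufa11, Ndufa12, Ndufab1 and Ndufs6.

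Among the assembly factors, Ndufaf5 had 8.61, 14.0 and 10.9 FPKM in HDAC3-KO muscle after running, against 18.6, 14.1 and 16.7 FPKM in WT muscle (log2 difference -0.54, SE 0.18, limma adjusted p = 0.16). The human protein hydroxylates NDUFS7, the product of the core gene described above. The authors' deposited table gave Ndufaf5 a q of 0.023 after running, and the highest HDAC3-KO library was just below the lowest WT library. Ndufaf6 had 22.8, 28.7 and 25.2 FPKM in HDAC3-KO muscle and 20.6, 21.2 and 22.7 FPKM in WT muscle (log2 difference 0.23, SE 0.12, limma adjusted p = 0.329), separate by a similarly small margin. Ndufaf7 had a difference of 0.10 and overlapped. Over the 7 assembly factors 4 differences were below 0, with a median of -0.07. In the Ndufa4 pair, Ndufa4 had a log2 difference of -0.38 with no overlap (SE 0.12, limma adjusted p = 0.129), while Ndufa4l2 had 2.59, 0.898 and 0.781 FPKM in HDAC3-KO muscle and 2.94, 4.20 and 0.886 FPKM in WT muscle, too low and too scattered for a separation (log2 difference -0.56, SE 0.41, limma adjusted p = 0.49).

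**Figure D3:**
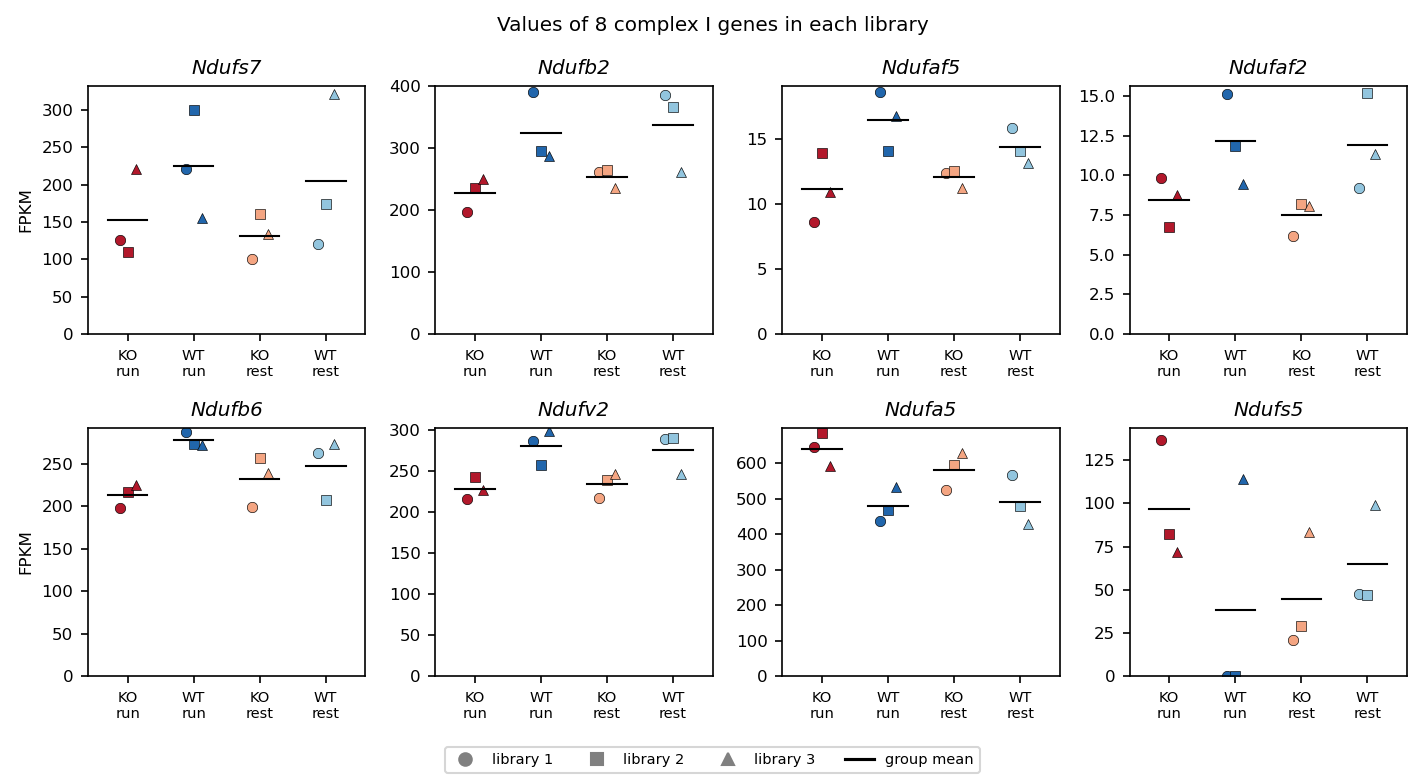
FPKM of 8 Nduf genes in every library, after running and at rest, with HDAC3-KO left of WT in each condition; symbols mark the library number and bars the group mean. Ndufb6 and Ndufa5 separate by genotype after running and overlap at rest, Ndufv2 and Ndufaf5 separate in both, Ndufs7 overlaps in both, and 2 WT libraries of Ndufs5 are near 0 after running.

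At rest, limma again called none of the 45 genes, where 4.72% of the 9204 tested genes were called. At an unadjusted p of 0.05, 5 of the 45 passed, against 21.5% of all tested genes. Ndufa9 and Ndufs3 were higher (12.2% of tested genes) and Ndufaf2, Ndufc2 and Ndufb2 lower (9.22%) in HDAC3-KO muscle. The authors' deposited table had 1 of the 45 at a q of 0.05 or less, Ndufs7, which was lower, against 4.94% of tested genes lower and 10.8% in either direction. The difference was below 0 for 20 of the 45 genes, against 48.3% of all tested genes, and its median was 0.04, against 0.01 over all tested genes. The 95% interval lay within 2-fold either way for 40 of the 45 genes, as it did for 88.7% of tested genes. Ndufa9, Ndufs3, Ndufb5, Ndufb9 and Ndufb11 were higher in every HDAC3-KO library, against 15.6% of tested genes, and Ndufv2, Ndufc2, Ndufaf2 and Ndufaf5 were lower in every one, against 12.4%.

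The accessory subunit Ndufa9 and the core subunit Ndufs3 of the Q module had the lowest unadjusted p-values among the genes higher in HDAC3-KO muscle at rest. Ndufa9 had 254, 271 and 269.5 FPKM in HDAC3-KO muscle, against 245, 222 and 197 FPKM in WT muscle (log2 difference 0.26, SE 0.11, limma adjusted p = 0.215). Ndufs3 had 378, 370.1 and 381 FPKM in HDAC3-KO muscle, against 349, 306 and 295 FPKM in WT muscle (log2 difference 0.25, SE 0.10, limma adjusted p = 0.207). After running their differences were 0.00 for Ndufa9 and -0.00 for Ndufs3. Ndufs7 at rest had 100.4, 160.1 and 134 FPKM in HDAC3-KO muscle and 120.0, 174 and 321 FPKM in WT muscle (log2 difference -0.54, SE 0.34, limma adjusted p = 0.413), and the authors' deposited table gave it a q of 0.00213. That difference rested largely on WT library 3, without which it was -0.16, whereas HDAC3-KO library 2 lay above WT library 1.

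Of the N module at rest, 8 of 10 differences were above 0, with a median of 0.06, and Ndufv2 alone did not overlap. Ndufv2 had 217, 239 and 246 FPKM in HDAC3-KO muscle, against 289, 291 and 247 FPKM in WT muscle (log2 difference -0.23, SE 0.11, limma adjusted p = 0.275), a gap of less than 1 FPKM between the nearest libraries. The Q module had 3 of 6 above 0, with a median of 0.12.

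In the distal arm at rest 6 of 10 differences were above 0, with a median of 0.12. Ndufb9 had 1003, 987 and 1037 FPKM in HDAC3-KO muscle, against 913, 964 and 816 FPKM in WT muscle (log2 difference 0.17, SE 0.11, limma adjusted p = 0.399). Ndufb5 had 503, 487 and 503 FPKM in HDAC3-KO muscle, against 463, 447 and 403 FPKM in WT muscle (log2 difference 0.19, SE 0.10, limma adjusted p = 0.323). Ndufb11 had 288, 295 and 316 FPKM in HDAC3-KO muscle, against 243, 286 and 285 FPKM in WT muscle (log2 difference 0.14, SE 0.11, limma adjusted p = 0.483). These 3 accessory subunits were higher in every HDAC3-KO library, by small margins. Ndufb2 pointed down as it did after running, with 262, 264 and 235 FPKM in HDAC3-KO muscle and 387, 367 and 261 FPKM in WT muscle (log2 difference -0.39, SE 0.16, limma adjusted p = 0.209), and its libraries overlapped as WT library 3 was low. Without that library the difference was -0.57 and passed the test (limma adjusted p = 0.0416).

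In the proximal arm at rest 6 of 9 differences were below 0, with a median of -0.14. Ndufc2 had 154, 179 and 171 FPKM in HDAC3-KO muscle, against 210.3, 181 and 239 FPKM in WT muscle (log2 difference -0.31, SE 0.13, limma adjusted p = 0.212), with no overlap. Its partner Ndufc1 had 459, 639 and 583 FPKM in HDAC3-KO muscle and 501, 428 and 472 FPKM in WT muscle (log2 difference 0.25, SE 0.14, limma adjusted p = 0.365). The Ndufc1 groups overlapped as HDAC3-KO library 1 was low. Ndufa11, a membrane subunit, had 13.4, 20.1 and 15.5 FPKM in HDAC3-KO muscle and 16.6, 20.0 and 29.2 FPKM in WT muscle (log2 difference -0.39, SE 0.22, limma adjusted p = 0.37), again with overlap. The acyl carrier Ndufab1 had a difference of 0.14.

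Ndufaf2, a chaperone of late assembly, had the lowest adjusted p of the 45 at rest. It had 6.2, 8.2 and 8.10 FPKM in HDAC3-KO muscle, against 9.21, 15.2 and 11.4 FPKM in WT muscle (log2 difference -0.59, SE 0.19, limma adjusted p = 0.128), and every HDAC3-KO library was below every WT library. After running it had 9.84, 6.73 and 8.77 FPKM in HDAC3-KO muscle and 15.1, 11.9 and 9.48 FPKM in WT muscle (log2 difference -0.47, SE 0.19, limma adjusted p = 0.23), where the groups overlapped. Ndufaf5 at rest had 12.4, 12.6 and 11.2 FPKM in HDAC3-KO muscle, against 15.8, 14.1 and 13.2 FPKM in WT muscle (log2 difference -0.23, SE 0.11, limma adjusted p = 0.277). Like Ndufv2, Ndufaf5 was lower in every HDAC3-KO library in both conditions. The share of all genes that were so in both was not counted, so this is a description only. Ndufaf6 had 25.8, 30.6 and 22.6 FPKM in HDAC3-KO muscle and 25.9, 24.7 and 16.0 FPKM in WT muscle (log2 difference 0.26, SE 0.20, limma adjusted p = 0.504), and overlapped. Over the 7 assembly factors 4 differences were below 0, with a median of -0.00. At rest Ndufa4l2 had 1.61, 4.08 and 5.04 FPKM in HDAC3-KO muscle and 1.70, 2.30 and 3.54 FPKM in WT muscle (log2 difference 0.33, SE 0.34, limma adjusted p = 0.621), and Ndufa4 had a difference of -0.22.

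The difference of the knockout effect between running and rest was tested with an interaction contrast over all 12 libraries. No gene of the 45 was called by limma, and the share called among the 8854 genes with a test in each condition was 0%. At an unadjusted p of 0.05, 2 of the 45 passed, against 4.89% of all genes. Ndufs5 was the 1 with a contrast above 0, as in 2.11% of genes (limma unadjusted p = 0.0276, adjusted p = 0.923), and the other had a contrast below 0, as in 2.78%. The contrast was below 0 for 38 of the 45 genes, with a median of -0.18, against 55.7% and -0.04 over all genes. The other complexes leaned the same way. It was below 0 for 34 of 37 genes of complexes III and IV and ATP synthase (median -0.17) and for 7 of 8 genes of the complex II list (-0.15). Within complex I the modules were as follows. All 10 N module genes were below 0, with a median of -0.15, as were 5 of 6 Q module genes (median -0.25), 6 of 9 in the proximal arm (-0.05), 9 of 10 in the distal arm (-0.18) and 5 of 7 assembly factors (-0.04).

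Library by library, the median of the 45 log2 ratios to the WT mean was -0.22, -0.14 and -0.00 in HDAC3-KO muscle after running, and 0.03, 0.01 and -0.04 in WT muscle after running. At rest it was -0.13, 0.07 and 0.14 in HDAC3-KO muscle, and 0.01, -0.02 and 0.04 in WT muscle. So 2 of 3 HDAC3-KO libraries lay below all WT libraries after running, and at rest the HDAC3-KO libraries lay on both sides of the WT libraries. The libraries with high S100a8 and S100a9 were HDAC3-KO library 3 after running and WT library 2 at rest. Without the first, the median difference after running was -0.21 and none of the 45 was called, and without the second the median at rest was 0.05 and none was called.

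**Figure D4:**
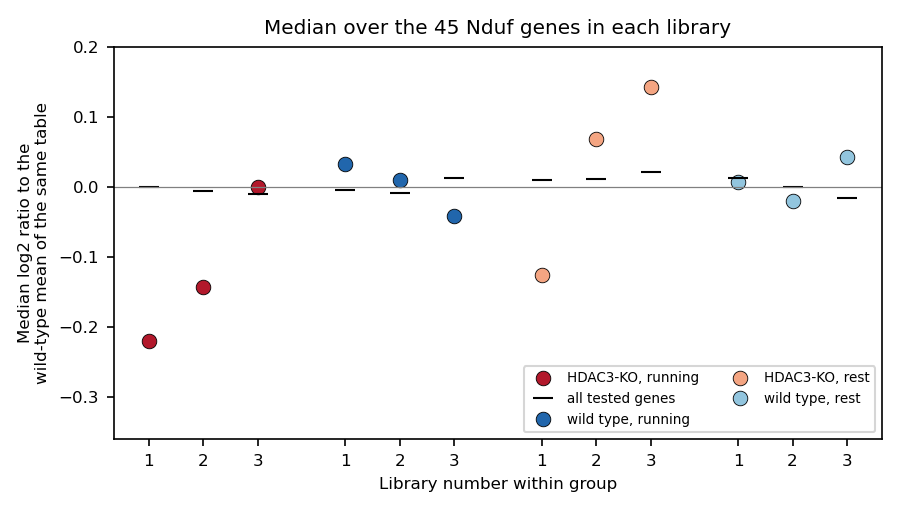
Median over the 45 Nduf genes of the log2 ratio to the WT mean of the same condition, 1 point per library, with the median of all tested genes as a dash. HDAC3-KO libraries 1 and 2 after running lie at -0.22 and -0.14, the other libraries between -0.13 and 0.14.

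Levels after running and at rest stand in tables that were normalised separately, so they are given side by side without a test. In HDAC3-KO muscle 16 of the 45 genes had a higher mean after running than at rest and 29 a lower one, with a median log2 ratio of -0.04, where all genes tested in both tables had -0.02. In WT muscle 37 of the 45 had a higher mean after running than at rest. The median log2 ratio of the 45 was 0.12, where all genes had -0.00. This was not particular to complex I. The genes of complexes III and IV and ATP synthase listed below also had higher WT means after running, such as Uqcr10 (0.31) and Cox4i1 (0.25). The exceptions were Cox7c (-0.15), Cox8a (-0.08) and Atp5k (-0.01). Every WT library after running exceeded every WT library at rest for 3 genes, among them Ndufa3 and Ndufa9, and in HDAC3-KO muscle the same held for Ndufaf4, with Ndufb9 the reverse. That was the case for 7.54% of all genes in WT muscle, and in HDAC3-KO muscle 5.87% were higher and 10% lower in every library, so these counts were not above those of all genes. Ndufa9 had 246, 257 and 259 FPKM in HDAC3-KO muscle after running and 254, 271 and 269.5 FPKM in HDAC3-KO muscle at rest, which overlapped. In WT muscle it had 260.1, 252 and 247 FPKM after running and 245, 222 and 197 FPKM at rest, which did not.

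The spread between libraries of 1 group was shared by a part of the set. Taking each library's deviation from its group mean over the 12 libraries, Ndufb7, Ndufa13, Ndufa11, Ndufs8, Ndufa8, Ndufa7 and Ndufv1 correlated with Ndufs7 at r of 0.9 or more, against 2.68% of all 8854 genes. Ndufb7, a distal arm subunit, had the highest r among the 45, at 0.995, with 112, 98.3 and 226 FPKM in HDAC3-KO and 171, 232 and 111 FPKM in WT muscle after running, and 102, 168 and 157 FPKM in HDAC3-KO and 71.2, 119 and 238 FPKM in WT muscle at rest. Both genes were high in WT library 3 at rest, HDAC3-KO library 3 and WT library 2 after running, and low in WT library 1 at rest and WT library 3 after running. At r of -0.6 or less stood 6 of the 44 other Nduf genes, a share close to the 13.7% of all genes. They were Ndufs4, Ndufa5, Ndufs1, Ndufa4, Ndufb5 and Ndufaf1, with Ndufaf1 lowest at -0.83. These correlations describe 12 libraries whose deviations sum to 0 within each group, and genes of 1 library share its depth and handling.

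**Figure D5:**
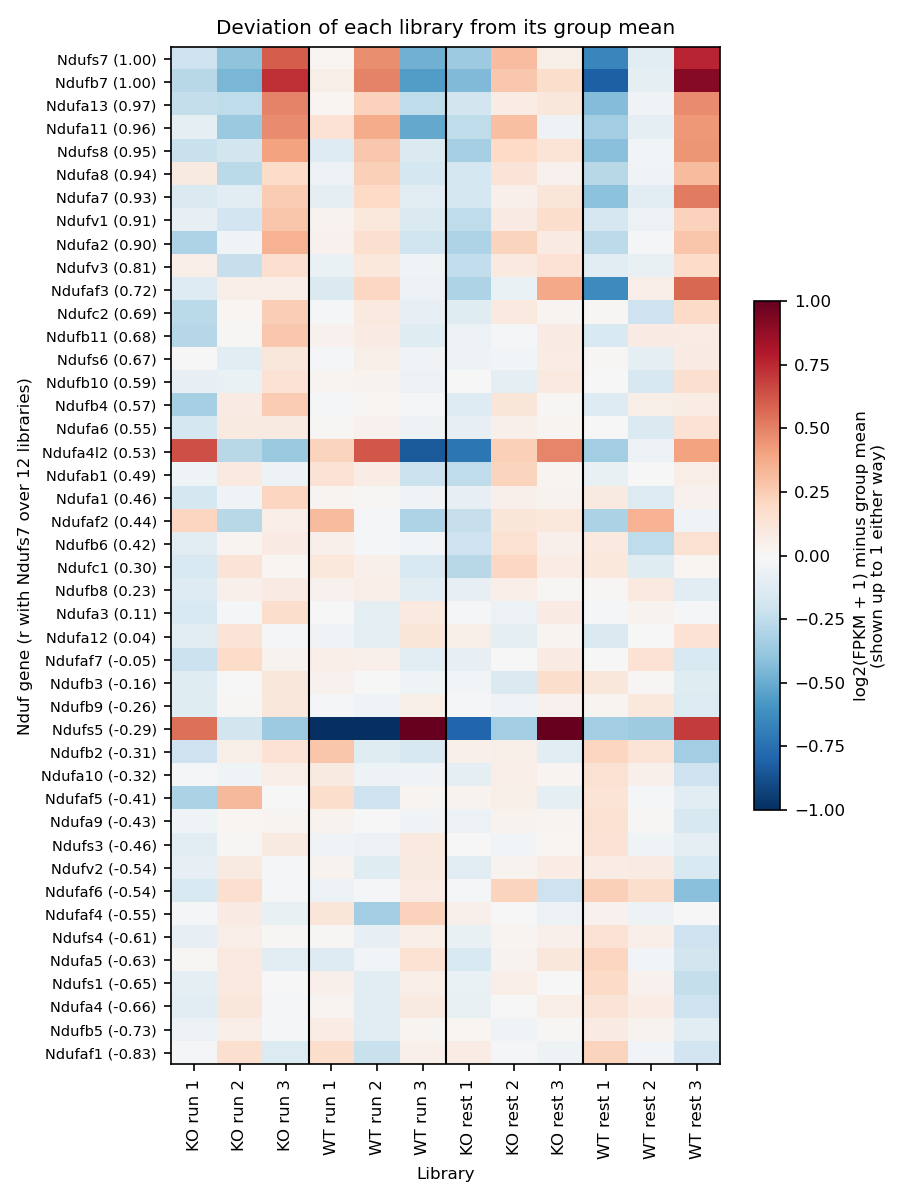
Deviation of log2(FPKM + 1) from the group mean for 44 of the 45 Nduf genes (rows, ordered by correlation with Ndufs7) in each library (columns; HDAC3-KO and WT after running, then HDAC3-KO and WT at rest), with colour limited to 1 either way. The top rows, from Ndufs7 and Ndufb7 down, change sign together, with WT library 3 at rest high and WT library 1 at rest low.

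The pattern ran through other genes of the same muscle. Muscle creatine kinase, Ckm, had r = 0.97 with Ndufs7, and so had Cox4i1 of complex IV, Uqcr10 of complex III and Atp5d of ATP synthase, while Uqcr11 of complex III had 0.98. Among the other complexes at r of 0.9 or more stood 3 of 9 complex III genes, 2 of 13 complex IV genes, 1 of 15 ATP synthase genes and none of 8 complex II genes. Of all 8854 genes, 2.68% did so. An r of -0.6 or less is a looser cutoff, which 13.7% of all genes met. It was met by Uqcrc2, Uqcrh and Uqcrb of complex III (lowest -0.86), Cox7b and Cox5a of complex IV and Atp5j of ATP synthase. Sdhaf2, an assembly factor of complex II, met it too. Outside the respiratory chain the nearest genes were Map2k2 (0.99), the RNA component of RNase P, Rpph1 (0.99), and the small nucleolar RNA gene Snora78 (0.99). Rpph1 had 378, 332 and 1857 FPKM in HDAC3-KO and 1329, 2503 and 517 FPKM in WT muscle after running, and 307, 808 and 717 FPKM in HDAC3-KO and 173, 488 and 3338 FPKM in WT muscle at rest. Their part in the differences of Ndufs7 was not tested.

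Beyond the Nduf names, 8 further assembly factors of complex I were listed (Acad9, Ecsit, Nubpl, Foxred1, Timmdc1, Tmem126b, Tmem70 and Tmem186). Tmem70, which helps assemble ATP synthase and complex I, rose in HDAC3-KO muscle in both conditions, and none of the other 7 was called. Over the 8, the median difference was 0.11 after running and 0.14 at rest. After running Tmem70 had 64.8, 78.3 and 66.6 FPKM in HDAC3-KO muscle, against 47.9, 43.3 and 48.7 FPKM in WT muscle (log2 difference 0.57, SE 0.12, limma adjusted p = 0.0418). At rest it had 78.9, 80.0 and 79.0 FPKM in HDAC3-KO muscle, against 48.1, 41.6 and 35.7 FPKM in WT muscle (log2 difference 0.92, SE 0.12, limma adjusted p = 0.0148). The groups did not overlap in either. Alone of the 8, Tmem70 had deviations correlated with those of Ndufs7 at r of -0.6 or less (-0.78), a cutoff that 13.7% of all genes met. The call after running was lost when any 1 library was left out, with adjusted p between 0.0737 and 0.143, while the difference lay between 0.49 and 0.62. At rest it was lost without WT library 2, HDAC3-KO library 1 or HDAC3-KO library 3, with adjusted p between 0.0548 and 0.0754.

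Of 11 tested regulators of respiratory chain genes, Tfam was the 1 called by limma, and it rose in HDAC3-KO muscle in both conditions, beside medians of 0.20 after running and 0.11 at rest over the 11. Tfam packs mitochondrial DNA and acts as a factor in its transcription, and that DNA encodes the remaining complex I subunits. After running it had 22.2, 26.0 and 23.7 FPKM in HDAC3-KO muscle, against 16.1, 15.0 and 14.4 FPKM in WT muscle (log2 difference 0.63, SE 0.11, limma adjusted p = 0.0313). At rest it had 26.2, 30.0 and 25.9 FPKM in HDAC3-KO muscle, against 15.3, 15.8 and 14.8 FPKM in WT muscle (log2 difference 0.79, SE 0.10, limma adjusted p = 0.0141). Every HDAC3-KO library was above every WT library. Leaving out any 1 library after running again lost the call, with adjusted p between 0.0584 and 0.107 and a difference between 0.57 and 0.68. At rest it was lost without WT library 2 (adjusted p 0.0695) or HDAC3-KO library 3 (adjusted p 0.0507). The authors' deposited table had a q of 0.05 or less for Tfam in both conditions and, at rest, also for Tfb2m, a mitochondrial transcription factor, with a q of 0.0408. Tfb2m had 34.7, 35.3 and 28.0 FPKM in HDAC3-KO muscle at rest, against 26.7, 23.7 and 21.5 FPKM in WT muscle (log2 difference 0.43, SE 0.13, limma adjusted p = 0.114). Esrra, a nuclear receptor that activates respiratory chain genes, lay on the other side of 0 in both conditions and was not called (log2 difference -0.56, SE 0.24, limma adjusted p = 0.245 for the runners, and log2 difference -0.66, SE 0.41, limma adjusted p = 0.405 without running). After running it had 15.6, 12.9 and 24.2 FPKM in HDAC3-KO muscle and 25.7, 31.9 and 20.4 FPKM in WT muscle, and the groups overlapped. Its deviations followed those of Ndufs7 at r = 0.95. Of the 11 regulators, 2 stood at r of 0.9 or more, Esrra and Ppard, against 2.68% of all genes. Another 2, Tfb2m (-0.65) and Gabpa (-0.68), stood at r of -0.6 or less, against 13.7% of all genes. Ppard, another of the 11, followed Ndufs7 at r = 0.90, yet its difference was above 0 in both conditions. It was not called (log2 difference 0.52, SE 0.19, limma adjusted p = 0.191 for the runners, and log2 difference 0.47, SE 0.23, limma adjusted p = 0.29 without running). Ppargc1a, the exercise-induced coactivator of mitochondrial genes, had 59.5, 39.2 and 20.5 FPKM in HDAC3-KO and 63.9, 11.7 and 24.7 FPKM in WT muscle after running, and 17.7, 12 and 15.4 FPKM in HDAC3-KO and 8.79, 13.7 and 13.0 FPKM in WT muscle at rest. Its libraries overlapped in both (log2 difference 0.44, SE 0.58, limma adjusted p = 0.724 for the runners, and log2 difference 0.33, SE 0.20, limma adjusted p = 0.387 without running).

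The other complexes of the chain were set beside complex I. Of 37 genes of complexes III and IV and ATP synthase, limma called none in either condition, and at an unadjusted p of 0.05 Atp5c1, Atp5g1 and Cox7a1 passed after running, all lower in HDAC3-KO muscle, and Atp5b (higher) and Atp5g1 (lower) at rest. These are 3 of 37 after running and 2 of 37 at rest, against 19.9% and 21.5% of all tested genes. Their median difference was -0.11 after running and 0.02 at rest, with 31 and 17 of 37 below 0, close in size to the -0.14 and 0.04 of the Nduf genes. The authors' deposited table had 1 of the 37 at a q of 0.05 or less, Atp5g1 at rest, with a q of 0.0256. The 8 genes of the complex II list take in the assembly factors Sdhaf1 to Sdhaf4, whereas the lists of complexes III and IV and ATP synthase hold subunits only. They had medians of -0.00 after running and 0.10 at rest, and none was called. The assembly factor Sdhaf3 passed an unadjusted p of 0.05 in each, with differences of -0.64 and -0.31. By list, the medians were -0.14 and 0.02 for complex III, -0.14 and 0.01 for complex IV, and -0.11 and 0.02 for ATP synthase. No test was made of complex I against the other complexes.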

How the data were processed

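The authors deposited FPKM per library in 2 tables, 1 per condition, with group means and the p-values and q-values of their own genotype comparison. Per the submitters' processing notes, TopHat2, Bowtie, Cuffdiff and HOMER were used with mm9; versions, settings, annotation and strand are not given in the sources used here. Low values did not fall on steps of whole reads (12 library pairs, median interquartile range of the log2 ratios 0.853), so depth is unknown and no counting error is given. Each table held 24354 rows, and 27 names that a spreadsheet had turned into dates after running were left out. The 4 GRO-seq samples were not analysed here. Genes with a p under 1 in the authors' deposited table were taken as tested.

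Each table was fitted on its own with limma 3.58.1 (R 4.3.3) on log2(FPKM + 1), a scale that understates the change of low genes, with a variance trend, two-sided, Benjamini-Hochberg adjusted over all tested genes. The script was tested on simulated data. The Nduf genes, gene lists and markers were chosen with earlier results of these data known. Values per library are given for Nduf genes called by either test, not overlapping between genotypes, among the 5 largest differences each way or the 3 highest and 3 lowest levels. They are also given for Hdac3, Ndufb7, Rpph1 and the list genes Tmem70, Tfam, Tfb2m, Esrra and Ppargc1a. Of these list genes, Esrra and Ppargc1a were called by neither test. The genes most like Ndufs7 across libraries were picked after their values were seen. Alternatives were a pseudocount of 0.1, a minimum of 1 FPKM, no filter, median-ratio scaling, no variance trend, a replicate block, the authors' q and leaving out each library. The values of 1 of the 45 genes are not reported here singly, though it is in all counts and medians.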

Additional observations from a re-analysis of the deposited data

How the results depend on the processing

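The count of Nduf genes called by limma stayed at 0 after running, at rest and for the difference between them under the other pseudocount, both filters, median-ratio scaling, no variance trend and the replicate block. By the q of the authors' deposited table it was 3 after running and 1 at rest. Leaving out 1 library gave 0 to 1 in each comparison: Ndufs5 without WT library 3 after running (also for the difference between conditions), and Ndufb2 without WT library 3 at rest. The median Nduf difference lay between -0.21 and -0.08 after running and between 0.00 and 0.08 at rest when 1 library was left out. Over all genes, the 337 calls after running became 53 with no filter, 170 with the block and 70 to 103 without 1 library; the 434 at rest became 98, 52 and 20 (without WT library 2) to 292. With no filter, 8 genes were called for the difference. Same-numbered libraries had deviations correlated between -0.29 and 0.14, and 2 of 6 matched best with their own number. No pairing by number was seen, though a check on so few libraries cannot exclude one. Tfam and Tmem70 lost their calls after running, and Tmem70 also at rest, with no filter, and both lost them in both conditions with the block. Tmem70 after running also lost it with no variance trend (adjusted p 0.0586). The cause was not tested. With 3 libraries a group and an unknown depth, small differences were not resolved. That held for low genes such as Ndufa4l2 and the assembly factors. It also held for more abundant genes with a wide spread, such as Ndufs7 (SE 0.31 after running and 0.34 at rest).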
